A study of Homo sapiens with 39 samples.

Results

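The mRNAs of 10 surface and secreted glycoproteins of the gut were followed across HCT116 cells that made 1 of 12 isoforms of hepatocyte nuclear factor 4 alpha (HNF4A): the mucins MUC1, MUC2, MUC3A, MUC5AC, MUC12, MUC13 and MUC20 and the CEACAM proteins CEACAM1, CEACAM5 and CEACAM6. They were taken by gene name from the expression tables, as 10 of 45435 genes. All 10 were present in all 13 tables. Only MUC1, MUC3A and MUC20 had a mean of at least 1 TPM (the unit of the tables, a length-corrected share of a library's mRNA) and entered the tests, as 3 of 15003 genes.

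HCT116 is a human colorectal cancer cell line. The series held 39 poly(A) RNA-seq libraries in 13 groups of 3. The controls were parental Flp-In T-REx HCT116 cells that carry no HNF4A insert. The remaining 12 groups were stable cell lines, 1 per isoform, in which 1 of the human isoforms 1 to 12, joined to GFP at its C-terminal end, had been inserted once into the genome under a doxycycline switch. All cells, the parental ones included, received 2.5 µg/ml doxycycline for 48 h. Before induction the parental cells were kept in 5 µg/ml blasticidin and 100 µg/ml zeocin, and the lines in 5 µg/ml blasticidin and 100 µg/ml hygromycin. No group expressed GFP alone, so the isoform, the GFP tag, the earlier antibiotic and the derivation of a line cannot be told apart in any comparison with the parental cells. The labels do not say that the 3 libraries of a group came from separate cultures, so p-values measure the spread between libraries of 1 line.

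Mucins are large proteins whose repeated serine- and threonine-rich stretches carry dense O-linked sugars. Secreted gel-forming mucins such as MUC2 build the mucus layer of the colon, and transmembrane mucins such as MUC1, MUC3A, MUC12 and MUC13 line the apical surface of enterocytes and form the glycocalyx. CEACAM proteins are immunoglobulin-like glycoproteins of the same surface: CEACAM1 spans the membrane, and CEACAM5 (carcinoembryonic antigen) and CEACAM6 are held by a lipid anchor. HNF4A is a nuclear receptor that drives enterocyte and hepatocyte genes. By the standard nomenclature, isoforms 1-6 start from its P1 promoter and isoforms 7-12 from its P2 promoter. Within each of the sets 1-3, 4-6, 7-9 and 10-12 the members differ at the C-terminal end.

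Promoter sequence was examined for the members by exact matches to CAAAGTCCA, a core of the motif that HNF4A is known to bind, on both strands of the RefSeq windows that run from before to just after a gene's start (GRCh38.p14). The motif was in 135 of 35116 windows (0.384%), and in 1 of the 9 windows that the table holds for 8 members, that of MUC13. The looser form CAAAGTNCA, which includes every match to the first, was in 385 windows (1.1%) and, among the members, again only in that of MUC13. MUC5AC and MUC20 had no window in the table. The 250 bases before the start are shown for MUC13, which varied most between the lines, and for MUC3A, which was above the parental cells in all of them. Capitals mark the match, which reads TGGACTTTG because it lies on the opposite strand.
MUC13, chr3:124934752-124935001, minus strand: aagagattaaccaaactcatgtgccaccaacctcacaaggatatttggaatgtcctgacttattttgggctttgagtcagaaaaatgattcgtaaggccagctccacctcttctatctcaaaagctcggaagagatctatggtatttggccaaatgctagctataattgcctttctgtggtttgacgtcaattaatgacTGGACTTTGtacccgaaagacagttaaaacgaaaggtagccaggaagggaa
MUC3A, chr7:100949284-100949533, plus strand: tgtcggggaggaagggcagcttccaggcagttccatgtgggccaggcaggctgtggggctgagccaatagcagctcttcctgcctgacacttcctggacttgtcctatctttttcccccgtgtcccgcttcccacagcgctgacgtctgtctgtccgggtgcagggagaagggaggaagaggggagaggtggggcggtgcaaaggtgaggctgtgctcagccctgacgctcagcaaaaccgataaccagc
The MUC13 match lay at chr3:124934794-124934802, from 51 to 43 bases before the RefSeq start. This window lies within the MUC13 gene of GENCODE 29 and overlaps none of its exons, and 1 of 5 GENCODE transcripts holds the bases just after that start. The MUC3A window had a GC content of 61.6%, against 41.6% for MUC13, and held neither form of the motif. For MUC3A, 0 of 4 GENCODE transcripts hold the bases just after the RefSeq start. A match describes letters and not a bound site, and no binding was measured.

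The libraries held between 27892 and 30553 genes above 0 TPM, and their depth is unknown from TPM. HNF4A, summed over its isoforms, was at 30.8 to 31.9 TPM in the parental libraries and at 407 to 1109 TPM in those of the lines. The lowest value was replicate 1 of isoform 3, where the other libraries of the line had 833 and 772 TPM. Without that library the MUC3A fold change of isoform 3 given below was 0.40 in place of 0.35 on the log2 scale and its mean MUC13 level was 0.0658 in place of 0.0572 TPM. Of 7 colon epithelium markers, 6 were at 1 TPM or above on average, among them EPCAM at a parental mean of 514 TPM and KRT8 at 1330 TPM, while CDX1 was at 0.0251 TPM. On average over all libraries, markers of other cell types reached 1 TPM for 1 of 6 fibroblast genes (COL1A1) and 0 of 4 leukocyte genes. They did so for 1 of 3 endothelial genes (PECAM1), 0 of 4 hepatocyte genes and 0 of 2 enteroendocrine genes. PDGFRB, a further fibroblast gene, had a parental mean of 1.09 TPM. The summed epithelial markers ranged from 3060 to 3190 TPM in the parental libraries and from 2490 to 5590 TPM in the lines, and the part of this variation in the results below was not tested.

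Mucin and CEACAM mRNA was scarce in these cells. On the TPM scale, which is per length and so allows levels of different genes to be compared, the order of the means over all libraries was MUC1 at 3.12 TPM, MUC3A at 2.61 TPM and MUC20 at 1.47 TPM. CEACAM1 followed at 0.169 TPM and MUC13 at 0.117 TPM. The remaining members were lower still, with CEACAM5 at 0.0573 TPM, MUC12 at 0.0266 TPM, CEACAM6 at 0.00993 TPM, MUC2 at 0.00301 TPM and MUC5AC at 0.000889 TPM. No single library had more than 3.97 TPM of any member, which was MUC1 in replicate 2 of isoform 3. The plot of TPM by library shows that no member became abundant in any line.

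**Figure D1:**
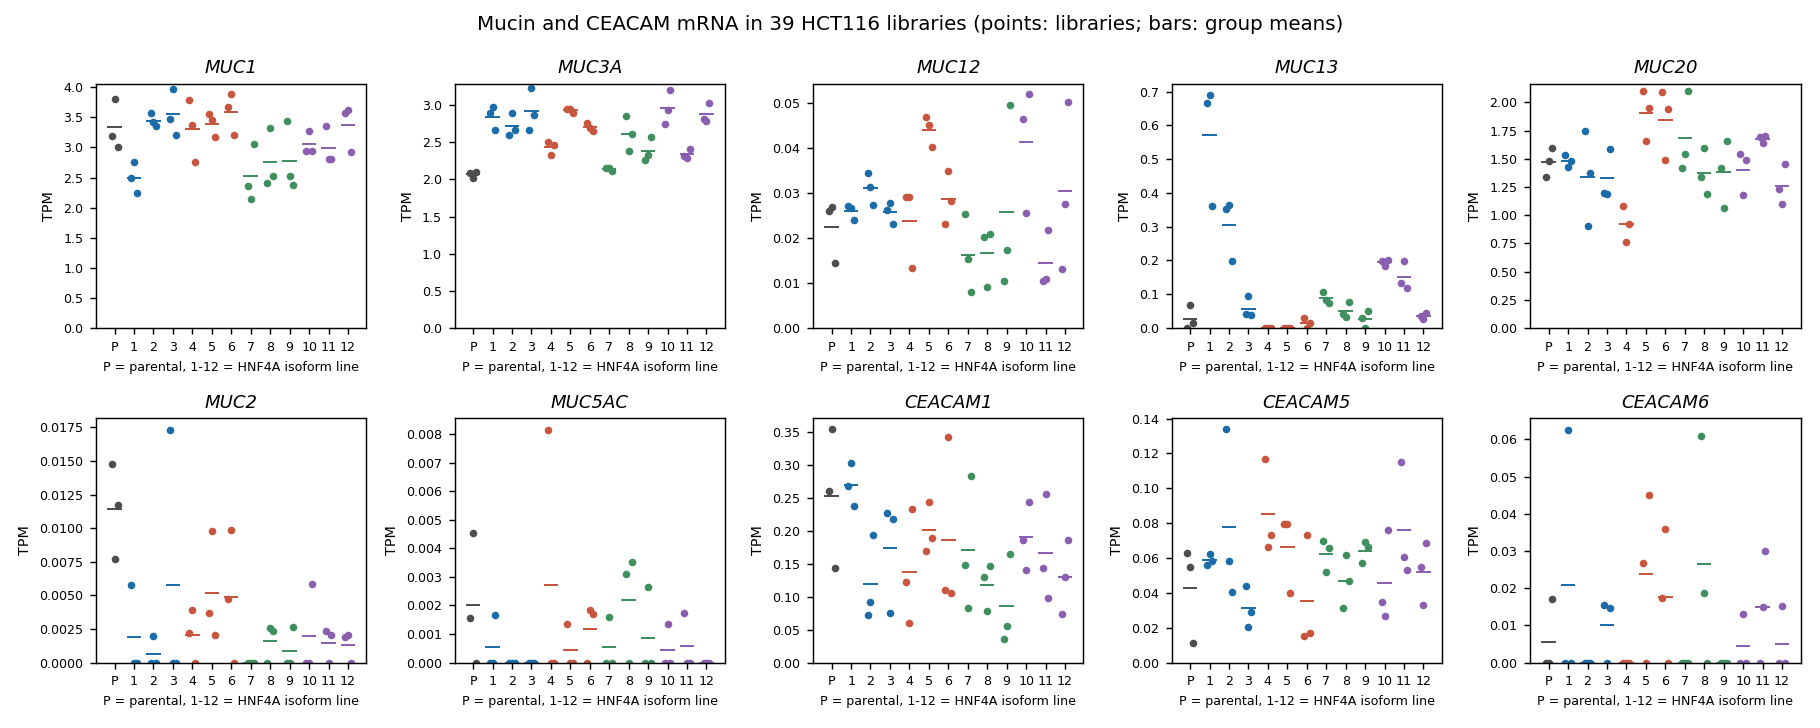
TPM of each member (y axis, linear and with its own range in each panel) in the parental cells (P) and the lines expressing isoforms 1 to 12 (x axis), with points for libraries, bars for group means and 1 colour for each set of 3 isoforms. MUC1, MUC3A and MUC20 stay between 0.765 and 3.97 TPM in every library, MUC13 stands out in isoforms 1 and 2, and the scales of MUC2, MUC5AC and CEACAM6 end below 0.1 TPM.

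No member passed the full test in any line. A gene was called when the Benjamini-Hochberg adjusted p of the limma fit was under 0.05 and the fold change at least 1 in absolute value on the log2(TPM + 1) scale. This held for 0 of the 36 tests of the 3 members. By the adjusted p alone 11 of the 36 tests passed, and 14 were at an unadjusted p under 0.05. Passing by the adjusted p alone was common among all genes tested. In isoform 1, 19.8% of them were higher and 38.7% lower by this rule. These shares were 6.26% and 10.1% in isoform 4, and 13.4% and 26.2% in isoform 7. The authors' deposited table, whose fold changes are on another scale, had 2 member values past both limits, both of MUC13. Among all genes tested the called share was 4.52%, 3.73% and 0.807% in the lines of isoforms 1, 2 and 3, and 0.540%, 0.293% and 0.247% in those of isoforms 4, 5 and 6. It was 2.08%, 1.41% and 0.827% for isoforms 7, 8 and 9, and 1.44%, 1.70% and 0.573% for isoforms 10, 11 and 12. With 3 members tested, a count of 0 is near what these shares give. All 12 comparisons use the same 3 parental libraries.

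MUC3A, a transmembrane mucin of the enterocyte brush border (chromosome 7, 100949555 to 100968346, plus strand, GRCh38), was higher in the lines by a small amount. The parental libraries had 2.08, 2.02 and 2.1 TPM. The line with the highest mean, isoform 10, had 2.75, 2.93 and 3.2 TPM, and isoform 5 had 2.95, 2.95 and 2.89 TPM. Every one of the 36 line libraries lay above the highest parental library, so the parental group did not overlap any line. That held for 143 of the 15003 genes tested (0.953%). The line nearest to the parental cells was isoform 7, at 2.15, 2.15 and 2.12 TPM.

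The log2 fold change of MUC3A was 0.37 ± 0.06 (SE) in isoform 10 (limma adjusted p = 1.27e-05), 0.36 in isoform 5 (8.48e-05) and 0.35 in isoform 3 (5.13e-05). For isoforms 12, 1, 2, 6 and 8 it was 0.34, 0.33, 0.28, 0.27 and 0.24, with a largest limma adjusted p of 0.00299 among these 8 lines. The other 4 lines did not reach an adjusted p under 0.05: isoform 4 (0.16, limma adjusted p = 0.0604), isoform 9 (0.14, 0.0859), isoform 11 (0.12, 0.104) and isoform 7 (0.03, 0.688). By the same rule the share of all genes that were higher was 19.8%, 19.7% and 11.2% in the lines of isoforms 1, 2 and 3, and 6.26%, 9.57% and 5.94% in those of isoforms 4, 5 and 6. It was 13.4%, 16.9% and 10.9% for isoforms 7, 8 and 9, and 17.0%, 14.5% and 7.92% for isoforms 10, 11 and 12. A higher level by this rule was thus common among the genes of these lines. In bulk libraries, more cells that express a gene and more of its RNA per cell cannot be told apart. All 8 adjusted p stayed under 0.05 when any 1 library of the comparison was left out.

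In order of the line means, neighbouring groups overlapped from isoform 10 (2.96 TPM) down to isoform 11 (2.34 TPM). Isoform 7 (2.14 TPM ± 0.0183, SD, n = 3) and the parental cells (2.06 TPM ± 0.0402, SD, n = 3) each stood apart from the group above. In the authors' deposited table MUC3A had an adjusted p under 0.05 and a higher level in 10 of 12 lines, with log2 fold changes from 0.15 (isoform 7) to 0.60 (isoform 1) over all lines. MUC3A has a near-identical neighbour, MUC3B, which is not analysed here, and reads shared between the genes make its level uncertain.

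MUC1, the transmembrane mucin of most glandular epithelia (chromosome 1, 155185824 to 155192916, minus strand), was the most abundant member. Parental libraries had 3.19, 3.81 and 3.01 TPM. Isoform 1 had 2.49, 2.75 and 2.24 TPM, and isoform 7 had 2.36, 2.15 and 3.05 TPM. All 3 isoform 1 libraries were below the lowest parental one, as were those of 42.8% of all genes tested, while isoform 7 overlapped the parental cells. Isoform 1 gave a log2 fold change of -0.31 ± 0.11 (SE), with a limma adjusted p of 0.0183. Isoform 7 gave -0.31 ± 0.11, with 0.0289. A lower level by the same rule was found for 38.7% of all genes in isoform 1 and 26.2% in isoform 7.

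The median gene was itself at -0.11 in isoform 1 and -0.06 in isoform 7, so that MUC1 lay 0.20 and 0.24 below it. After median-of-ratios scaling MUC1 had an adjusted p under 0.05 in 0 lines. The low values also rested on single libraries: without parental replicate 2 or without isoform 1 replicate 3 the limma adjusted p of isoform 1 went as high as 0.112. For isoform 7 it went as high as 0.158, and was over 0.05 without parental replicate 2, isoform 7 replicate 1 or isoform 7 replicate 2. In isoforms 8 and 9, each at -0.21 (limma adjusted p = 0.143 and 0.197), leaving out isoform 8 replicate 2 gave 0.0409 and leaving out isoform 9 replicate 1 gave 0.0389. In the other 8 lines mean MUC1 ran from 2.99 TPM for isoform 11 to 3.59 TPM for isoform 6. The authors' deposited table had MUC1 under an adjusted p of 0.05 in 0 lines.

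MUC20, a membrane-bound mucin known to interact with the MET receptor (chromosome 3, 195720882 to 195741123, plus strand), spread in both directions. The parental libraries had 1.34, 1.48 and 1.6 TPM. Isoform 4 was lowest, with 1.08, 0.765 and 0.92 TPM, and isoform 5 highest, with 2.1, 1.66 and 1.95 TPM. Neither overlapped the parental cells: the 3 isoform 4 libraries were below the lowest parental library, as for 22.0% of all genes, and the 3 isoform 5 libraries were above the highest, as for 22.3%. The isoform 11 libraries (1.69, 1.64 and 1.7 TPM) were above as well, as for 19.4% of all genes, and the remaining lines overlapped the parental range.

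For MUC20 the limma adjusted p was under 0.05 only in isoform 4 (-0.37 ± 0.12 on the log2 scale, SE; adjusted p = 0.0325), a result shared by 10.1% of all genes in the lower direction. Isoform 5 was at 0.23 (limma adjusted p = 0.217) and isoform 11 at 0.12 (0.466). The isoform 4 adjusted p was over 0.05 in 4 of 6 fits with 1 library left out (parental replicate 2, parental replicate 3 and 2 of the isoform 4 libraries), with a largest adjusted p of 0.138. In the authors' deposited table it was -0.37 with an adjusted p of 0.0253. MUC20P1, a pseudogene copy on the same chromosome, was at 1.26 TPM ± 0.211 (SD, n = 3) in the parental cells, beside 1.47 TPM ± 0.13 of MUC20. Isoform 4 libraries had 0.925, 0.718 and 0.392 TPM of it. Reads could be split between these copies, and the part of that in the MUC20 values was not tested.

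**Figure D2:**
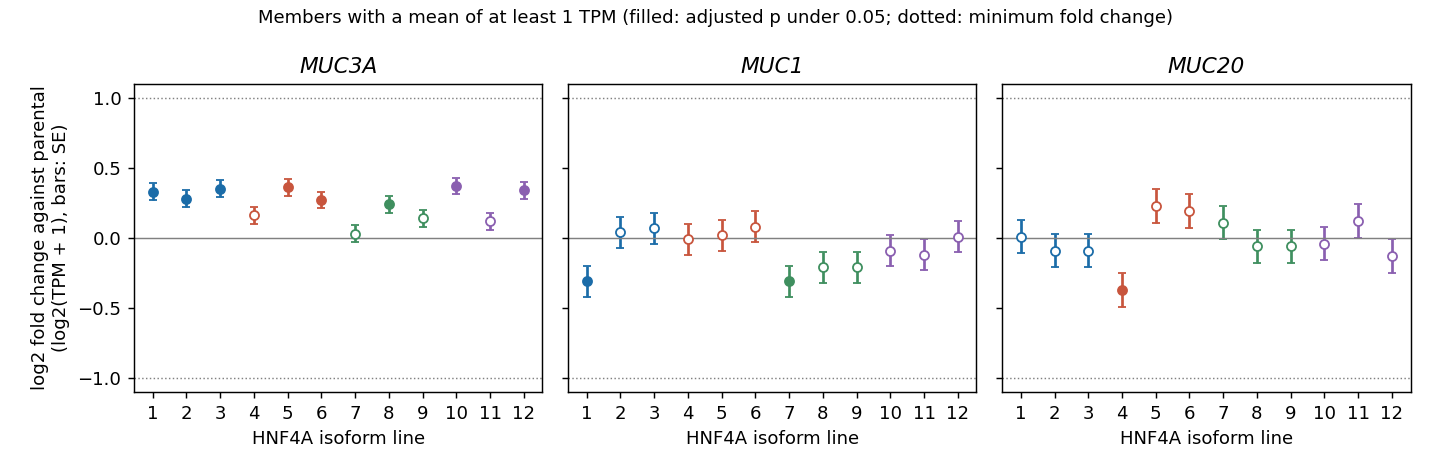
Log2 fold change against the parental cells (y axis, log2(TPM + 1) scale, bars: SE) of MUC3A, MUC1 and MUC20 in each isoform line (x axis). Filled points have a limma adjusted p under 0.05 and dotted lines mark the minimum fold change of 1, which no point reaches: the values run from -0.37 (MUC20, isoform 4) to 0.37 (MUC3A, isoform 10).

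The isoform sets were compared with the 12 lines as units, since each isoform is 1 line. In an additive limma model of the N-terminal set and the C-terminal form, 0 of the 3 members was called in any of 5 contrasts, 0 of 15 tests had an unadjusted p under 0.05, and the smallest was 0.0759. The called share of all genes was 1.95% for isoforms 4-6 against 1-3 and 0.520% for 7-9 against 1-3. It was 0% for 10-12 against 7-9, 0% for the forms 2, 5, 8 and 11 against 1, 4, 7 and 10, and 0.00667% for 3, 6, 9 and 12 against the other C-terminal forms. At an unadjusted p under 0.05 these contrasts held 6925, 4792, 1132, 454 and 2724 genes. MUC3A differed by -0.06 ± 0.10 between isoforms 4-6 and 1-3, and MUC1 by 0.10 ± 0.09 (log2 scale, SE).

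MUC13, a transmembrane mucin of the intestinal surface (chromosome 3, 124905442 to 124953819, minus strand), was the member with the clearest difference between isoforms, at a level below the 1 TPM minimum. The parental libraries had 0, 0.0674 and 0.0147 TPM. Isoform 1 had 0.667, 0.689 and 0.362 TPM, and isoform 2 had 0.351, 0.364 and 0.198 TPM. Isoform 3, of the same N-terminal set, had 0.04, 0.0936 and 0.038 TPM and overlapped the parental range. In isoforms 4 and 5 the gene is listed at 0 in all 6 libraries, and isoform 6 had 0.0303, 0 and 0.0146 TPM.

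Among the isoforms of the P2 promoter, isoform 10 had 0.197, 0.184 and 0.201 TPM of MUC13 and isoform 11 had 0.134, 0.197 and 0.118 TPM. Isoform 7 had 0.107, 0.0826 and 0.0725 TPM, and isoform 8 had 0.0399, 0.0323 and 0.0757 TPM. Isoforms 9 (0.0298, 0 and 0.0509 TPM) and 12 (0.0355, 0.0264 and 0.0453 TPM) were lowest. All 3 libraries of isoforms 1, 2, 7, 10 and 11 lay above the highest parental library, and those of the other lines overlapped the parental range. Over the 39252 genes with any signal the same separation was found for 11.1%, 11.2%, 8.26%, 11.3% and 8.98% of genes in these lines, in the same order. In the order of the means, isoform 1, 2, 10 and 11 overlapped from one to the next, and a gap lay between isoform 11 (0.149 TPM ± 0.0418, SD, n = 3) and isoform 7 (0.0872 TPM ± 0.0176, SD, n = 3).

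The values of MUC13 near 0 rest on few reads. The authors' deposited table gives a mean normalised count of 24.9 for the isoform 1 comparison, 13.6 for isoform 2, 8.84 for isoform 10 and 6.94 for isoform 11, and between 1.03 and 4.37 for the other lines. In that table MUC13 was higher with a log2 fold change of 2.50 in isoform 1 (adjusted p = 6.77e-12), 1.46 in isoform 2 (2.36e-05), 0.51 in isoform 10 (0.00899) and 0.43 in isoform 11 (0.0413). It holds no adjusted p for MUC13 in the other 8 lines. The authors' fold changes are not on the scale of the fits here, so their sizes cannot be compared directly. For isoform 10 their value was 0.51, with means of 0.194 TPM in the line and 0.0274 TPM in the parental cells. Over all genes with an adjusted p in the authors' tables, between 16.9% (isoform 6) and 39% (isoform 2) were under 0.05 in either direction.

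MUC13 was also fitted here with no minimum level and a pseudocount of 0.1, settings chosen after its values were seen. The log2 fold change on the log2(TPM + 0.1) scale was 2.39 ± 0.21 (SE) in isoform 1 (limma adjusted p = 1.16e-10), 1.67 in isoform 2 (1.55e-07) and 1.24 in isoform 10 (4.89e-05), and these were called. The called share of all 39252 genes in this direction was 2.29% in isoform 1, 1.94% in isoform 2 and 1.17% in isoform 10. Isoform 11 was at 0.99 (limma adjusted p = 0.000711), just under the minimum fold change. Isoform 7 was at 0.59 (0.0486), a value that reached 0.235 when 1 library was left out. With 1 library left out, isoform 1 ranged from 2.24 to 2.65, isoform 2 from 1.52 to 1.89 and isoform 10 from 1.08 to 1.46. With no minimum level and the pseudocount kept at 1 the fold change of isoform 1 was 0.61 (limma adjusted p = 6.94e-11), and MUC13 was called in 0 lines.

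Between isoform sets, MUC13 was lower in isoforms 4-6 than in isoforms 1-3 by 1.71 ± 0.36 (SE, a difference of -1.71 on the log2(TPM + 0.1) scale, limma adjusted p = 0.0302, 12 lines), a call shared by 1.09% of all genes in that direction. With a pseudocount of 1 the same difference was -0.36 ± 0.09 (limma adjusted p = 0.0535) and was not called. The means of isoforms 1, 2 and 3 were 0.572, 0.304 and 0.0572 TPM, so isoform 3 took little part in the difference. Those of isoforms 4, 5 and 6 were 0, 0 and 0.015 TPM, and with values at 0 its size depends on the pseudocount. With the pseudocount of 0.1, isoforms 7-9 against 1-3 gave -1.18 (limma adjusted p = 0.155). In the same fit isoforms 3, 6, 9 and 12 against the other C-terminal forms gave -0.73 (limma adjusted p = 0.41).

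The order of the lines by MUC13 was not their order by HNF4A mRNA. Isoform 6 had the most HNF4A, at 1070 TPM, and 0.015 TPM of MUC13. Isoforms 4 and 5 had 856 and 852 TPM of HNF4A and were listed at 0 for MUC13. Isoform 2, with the lowest HNF4A mean of the lines at 614 TPM, had the second highest MUC13 mean at 0.304 TPM. Isoform 1 had 782 TPM of HNF4A and 0.572 TPM of MUC13.

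**Figure D3:**
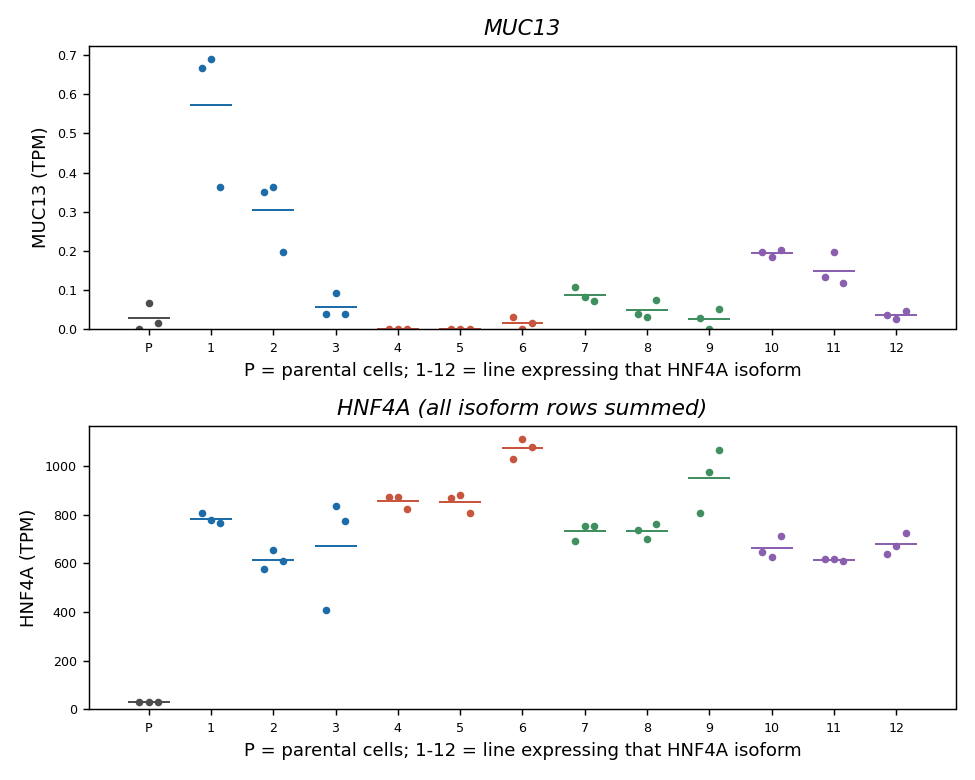
TPM of MUC13 (upper panel) and of HNF4A summed over its isoforms (lower panel) on linear y axes, in the parental cells (P) and the isoform lines (x axis), with points for libraries and bars for group means. MUC13 is highest in isoforms 1 and 2 (means of 0.572 and 0.304 TPM), whereas HNF4A is highest in isoform 6 (1070 TPM), where MUC13 is at 0.015 TPM.

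MUC12, a transmembrane mucin encoded next to MUC3A (chromosome 7, 100969623 to 101018949, plus strand), was at 0.026, 0.0269 and 0.0143 TPM in the parental libraries. Its highest line mean was in isoform 5, at 0.0468, 0.045 and 0.0401 TPM, and its lowest in isoform 11, at 0.0104, 0.0109 and 0.0218 TPM. Isoform 9 alone ran from 0.0104 to 0.0495 TPM, as wide as the range between these lines. Over the 13 group means on the log2(TPM + 1) scale MUC12 had a Pearson r of 0.7 with MUC3A, the highest among the members. The points share their libraries, and reads of similar repeats in both genes could be split by the counting.

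The gel-forming mucins were close to absent. MUC2, the main mucin of colonic mucus (chromosome 11, 1074875 to 1110511, plus strand), was at 0.0148, 0.00768 and 0.0117 TPM in the parental libraries. It was listed at 0 in 18 of 39 libraries, among them all 3 of isoform 7, and its highest library was replicate 1 of isoform 3 at 0.0173 TPM. The parental group thus had the highest mean, and single libraries of isoforms 3, 5 and 6 reached its range. In the authors' deposited table the mean normalised counts of MUC2 were between 2.59 and 4.24. In the added fit with no minimum level and a pseudocount of 0.1, the MUC2 value of isoform 7 was -0.16 ± 0.05 (SE, limma adjusted p = 0.0303). That of isoform 2 was -0.15 (0.0318). Neither was past the minimum fold change, and the other 10 lines had an adjusted p of 0.0601 or more. In the main fit 26.2% of all genes tested were lower in isoform 7 by the adjusted p alone. The share of all genes below the parental cells was not counted for the added fit. MUC5AC, the gastric gel-forming mucin (chromosome 11, 1157953 to 1201138, plus strand), was listed at 0 in 26 libraries and did not exceed 0.00814 TPM, with mean normalised counts of 0.649 to 1.59 in the authors' table. Isoforms 2, 3 and 12 were at 0 in all libraries for MUC5AC.

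CEACAM1, a cell adhesion molecule with an inhibitory cytoplasmic tail (chromosome 19, 42507304 to 42561234, minus strand), was at 0.26, 0.354 and 0.143 TPM in the parental libraries. Isoform 1 had 0.268, 0.303 and 0.237 TPM, and isoform 9, with the lowest mean, had 0.0364, 0.0549 and 0.165 TPM. Every line overlapped the parental range, and with no minimum level the limma fit gave an adjusted p under 0.05 in 0 lines. CEACAM5 (chromosome 19, 41708585 to 41729798, plus strand) was at 0.0631, 0.0548 and 0.0113 TPM in the parental libraries and did not exceed 0.134 TPM (isoform 2 replicate 1). Its line means ran from 0.0311 TPM in isoform 3 to 0.0854 TPM in isoform 4. CEACAM6, its neighbour (chromosome 19, 41750977 to 41772208, plus strand), was listed at 0 in 25 libraries and peaked at 0.0625 TPM in isoform 1 replicate 2, where the other libraries of that line were at 0. Mean normalised counts in the authors' deposited table were 3.3 to 6.53 for CEACAM5 and 0.177 to 1.05 for CEACAM6.

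Most other mucin and CEACAM genes were low as well. Of 16 other mucin and mucin-like genes, 14 were in the tables, 2 were tested (OVGP1 and CD164, a sialomucin at 127 TPM in the parental cells) and 0 were called. MUC4, a large transmembrane mucin, was at 0.253 TPM in the parental cells and no higher than 0.329 TPM in any library, and MUC17, an enterocyte mucin, did not exceed 0.0324 TPM. Of 9 other CEACAM genes 1 was tested, CEACAM19, and 0 were called. CEACAM20, a CEACAM protein of intestinal microvilli, was below the minimum level but had 0.15, 0.0821 and 0.0276 TPM in the parental libraries against 1.64, 1.38 and 1.7 TPM in isoform 1. It had 0.664, 0.762 and 0.524 TPM in isoform 2. As with MUC13, isoform 3 was low, at 0.101, 0.0968 and 0.219 TPM, and isoform 6 was at 0.0737, 0.0647 and 0.0457 TPM.

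Enzymes that build O-linked sugars on mucins were widely expressed. Of 29 genes 21 had at least 1 TPM and were tested, and 2 were called in a line. Among all genes tested 985 of 15003 (6.57%) were called in at least 1 line, so 2 of 21 is near that share. B3GNT3, which extends core O-glycans, rose from 8.7 TPM in the parental cells to 41 TPM ± 2.15 (SD, n = 3) in isoform 2. Its log2 fold change there was 2.12 ± 0.09 (SE), at a limma adjusted p of 2.47e-18. B3GNT3 was also called in isoform 1 (2.07, limma adjusted p = 3.05e-18) and isoform 3 (1.12, 4.93e-11). It was not called in the other 9 lines, with 0.99 in isoform 11 and 0.20 in isoform 6 (4 lines were called with median-of-ratios scaling). By the adjusted p alone it was higher in 11 lines, among them isoform 10 at 0.85 (limma adjusted p = 6.94e-09). In isoform 3 replicate 1 was lowest, with 16.2 TPM of B3GNT3 against 22.9 and 21.7 TPM, and without it the log2 fold change was 1.27. ST3GAL1, a sialyltransferase that caps core O-glycans, was lower in isoform 2 by 1.04 ± 0.11 (-1.04, limma adjusted p = 4.44e-09) and lost its call with median-of-ratios scaling, at -0.95. ST3GAL1 was also lower in isoform 1 (-0.71, limma adjusted p = 2.69e-06) and isoform 12 (-0.38, 0.0203), short of the minimum fold change. The median log2 fold change of the 21 genes was -0.13 in isoform 1, -0.11 in isoform 2 and 0.01 in isoform 6, beside -0.11, -0.09 and -0.01 over all genes.

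Most genes of the goblet cell, the cell type that makes MUC2, were under the minimum level. Of 21 genes 6 were tested and 2 called, each in 1 line, isoform 1, where 4.52% of all genes tested were called. With so few genes tested, 1 of them higher and 1 lower, the count says little about the list. KLF4, a factor of goblet cell maturation, rose from 20 TPM to 42.2 TPM ± 3.55 (SD, n = 3; log2 fold change 1.04, limma adjusted p = 7.43e-14). FOXA1 was lower by 1.09 (-1.09, limma adjusted p = 1.17e-09), which became -0.99 and lost its call with median-of-ratios scaling. Isoform 2 was just under the minimum fold change for both, with KLF4 at 0.84 (limma adjusted p = 1.05e-11) and FOXA1 at -0.90 (6.53e-08), and its difference from isoform 1 was not tested. For isoforms 7 and 11 FOXA1 was at -0.83 and -0.84 (limma adjusted p = 4.91e-07 and 5.24e-07). KLF4 did not rise in all lines: by the adjusted p alone it was higher in 5 and lower in 3. The 3 lower lines were isoforms 4, 5 and 6, at -0.28, -0.43 and -0.39 (limma adjusted p = 0.00458, 4.89e-05 and 0.00023). TFF1, TFF2, AGR3, FOXA2 and RETNLB were listed at 0 in all libraries, SPDEF, the goblet cell regulator, did not exceed 0.123 TPM, and AGR2 did not exceed 0.0539 TPM. The median of the 6 genes tested was -0.20 in isoform 1 and -0.32 in isoform 2, beside -0.11 and -0.09 over all genes.

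ZG16, a lectin of goblet cell granules under the minimum level, had 0.138, 0.0573 and 0.044 TPM in the parental libraries. It had 3.98, 2.64 and 3.16 TPM in isoform 1 and 1.53, 2.01 and 3.1 TPM in isoform 2. Isoforms 7 and 10 were at 1.2, 1.01 and 1.03 TPM and at 1.4, 0.918 and 1.53 TPM, while isoform 6 did not exceed 0.045 TPM. ZG16 and CEACAM20 were chosen after their values were seen and do not stand for their lists. CEACAM19, the tested gene of the CEACAM list, was below the parental cells in every line. ATOH1, a factor of the secretory lineage in the goblet list, had its highest mean in the parental cells (0.918 TPM) and its lowest in isoform 2 (0.281 TPM).

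Markers of absorptive enterocytes, the cells that carry the transmembrane mucins, were mostly low in the parental cells, apart from CA2 at 103 TPM. Of 17 genes 4 were tested and all 4 were called in a line. VIL1, LGALS4 and ANPEP were under 1 TPM in the parental cells and passed the minimum level through lines in which they were high, so this count supports nothing about the list. VIL1, the microvillus actin bundler, rose in 9 lines, from 0.554 TPM in the parental cells to 42.7 TPM in isoform 1 (4.81 ± 0.17 in log2 units, limma adjusted p = 2.05e-20). LGALS4, a lectin of the brush border, rose in 8 lines. In isoform 3 replicate 1 was again low, at 9.91 TPM of VIL1 against 20.7 and 23.4 TPM and 1.27 TPM of LGALS4 against 3.58 and 3.51 TPM. Without it the log2 fold change of isoform 3 went from 3.53 to 3.89 for VIL1 and from 1.66 to 2.00 for LGALS4. ANPEP, a brush border peptidase, rose in 6 lines, up to 8.46 TPM in isoform 7 (3.03, limma adjusted p = 3.74e-20). CA2, a carbonic anhydrase, was lower in isoform 1 (49 TPM, -1.05, limma adjusted p = 2.7e-12) and isoform 2 (50.9 TPM, adjusted p of 1.09e-11, just under the minimum fold change). It was between -0.57 and -0.22 in the other 10 lines, with limma adjusted p of 0.049 or less. With median-of-ratios scaling isoform 1 was at -0.91 and isoform 2 at -0.88, and the call was lost. In total 985 of 15003 genes (6.57%) were called in at least 1 line.

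**Figure D4:**
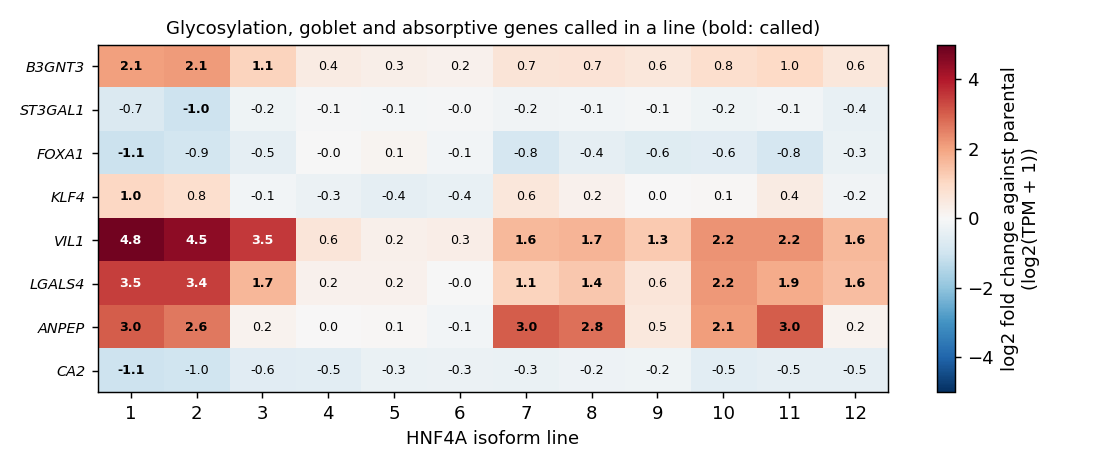
Log2 fold change against the parental cells on the log2(TPM + 1) scale (colour and printed value, rounded) of the genes of the O-glycosylation, goblet and absorptive lists that were called in at least 1 line (vertical axis), in each isoform line (horizontal axis), with called values in bold. VIL1 reaches 4.81 in isoform 1 and B3GNT3 2.12 in isoform 2, and isoforms 4, 5 and 6 hold no called value.

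The genes whose pattern over the 13 group means was most like that of MUC13 were NFE2L1, TUBAL3 and TMEM150B, each with a Pearson r of 0.97 on the log2(TPM + 1) scale. TUBAL3, a tubulin-like gene, was at 0.107 TPM in the parental cells, 5.07 TPM in isoform 1, 3.3 TPM in isoform 2 and 0.0809 TPM in isoform 6. For MUC3A they were DYM and FIBCD1 (r of 0.90 each) and PAX9 (0.89). DYM varied little, with 32.5 TPM in the parental cells and 34.1 TPM in isoform 1, and FIBCD1 was at 2.55 and 7.78 TPM. The points share libraries and the parental group, and MUC13 and MUC3A were chosen for this after their values were seen.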

How the data were processed

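RNA-seq of 39 libraries was used as TPM, which the authors deposited in 13 tables, 1 per group. The submitters' processing notes name Trimmomatic 0.36, FastQC 0.11.5, kallisto 0.44.0, DESeq2 1.22.2 and the build GRCh38.p12, with no role or order. The authors' own comparisons (a mean of normalised counts as a signal, a log2 fold change with its error, a score, and raw and adjusted p-values, per the file headers) entered no fit and are printed only as the authors' deposited table. Summed over genes, those mean counts came to 50609338 to 56136330 per table, the only measure of depth. TPM columns summed to 999972.6 to 999987.7. The tables of isoforms 4 and 5 spell 29 names differently, and 12 HNF4A rows were summed in each table. The labels repeat 1 name for all libraries of isoform 4 and of isoform 5, so these have a group and no replicate number.

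Genes averaging 1 TPM or more over all libraries were fitted with limma 3.58.1 (R 4.3.3, eBayes with trend) on log2(TPM + 1), which understates changes of low genes, in 1 model of 13 groups with 26 residual degrees of freedom. The procedure was tested on simulated data. Alternatives were another pseudocount, filter, scaling, trend or sample set, no minimum fold change, a replicate block and leaving out each library. The members and gene lists were chosen with earlier results of these data known. The genes named are all members, HNF4A, cell type markers, up to 5 genes per list by the number of lines that called them, and the 3 genes most like each called member. No member was called, so MUC13 and MUC3A were taken for the latter, and low genes of the lists are named as levels, after their values were seen. Positions are from GENCODE 29 and promoter windows from RefSeq.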

Additional observations from a re-analysis of the deposited data

How the results depend on the processing

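In the comparisons of each line with the parental cells and of the isoform sets, the number of members called was 0 under every alternative but 2. With no minimum fold change it was 2 in isoform 1 and 1 in each of isoforms 2, 3, 4, 5, 6, 7, 8, 10 and 12. With a pseudocount of 0.1 and no filter, added after the data were seen, it was 1 in isoforms 1, 2 and 10 and 1 for isoforms 4-6 against 1-3, each time MUC13. Leaving out 1 library at a time gave 0 to 0 in all lines. MUC3A had a limma adjusted p under 0.05 in 8 lines, in 11 with median-of-ratios scaling or without the trend, in 9 with a pseudocount of 0.1 and in 6 when each line was fitted with the parental cells alone. With the replicate block it was 7 of the 10 lines with replicate numbers, and the members called stayed at 0. Same-numbered libraries deviated together weakly at most (4 of 30 pairs had a correlation over 0.1, from -0.05 to 0.19). These values do not decide whether the numbers pair the samples weakly, and the main fit used no pairing. MUC20 in isoform 4 was over 0.05 with no filter and in the fit with the parental cells alone. A filter of 5 TPM leaves no member, so it has no value. TPM holds no counts, so no counting error could be given.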

Other observations

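Low genes of the lists, chosen after their values were seen, differed in their pattern over the lines. KLK1, a kallikrein of the goblet list, was at 0.801, 0.943 and 0.84 TPM in the parental libraries, at 1.83, 2.53 and 1.57 TPM in isoform 1 and at 1.94, 2.47 and 1.65 TPM in isoform 2. Its means were 1.18 TPM in isoform 3, 1.17 TPM in isoform 10 and 0.889 TPM or less in the other lines. ATOH1, the goblet and secretory lineage factor, went the other way: it was at 0.908, 0.936 and 0.909 TPM in the parental libraries, at 0.346, 0.348 and 0.665 TPM in isoform 1 and at 0.409, 0.212 and 0.223 TPM in isoform 2. APOA4, an enterocyte apolipoprotein, was at 0 in every library of the parental cells and of isoforms 4, 6, 9 and 12. It was at 2.52 TPM ± 1.18 (SD, n = 3) in isoform 1 and 0.661 TPM ± 0.215 (SD, n = 3) in isoform 2. APOA4 does not stand for the absorptive list, where KRT20 and FABP1 showed no such rise. KRT20 had means of 0.952 TPM in the parental cells, 0.826 TPM in isoform 1 and 0.954 TPM in isoform 2. FABP1 was at 0 in all libraries. SPINK4, a goblet cell peptide, had its highest mean in isoform 7, at 0.448 TPM. These differences were not tested, since all of these genes were under the minimum level.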
